A study of Mus musculus with 24 samples.

Results

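Cdx2, Gata3, Elf5, Tfap2c, Tfap2a, Krt7, Krt8, Krt18, Krt19 and Tead4 are genes of the trophectoderm, the outer epithelium of the blastocyst that forms the fetal part of the placenta. The 10 were taken by symbol from the count tables of mouse embryonic stem cells (ESCs) and all were found, among 22926 symbols in all. In the embryo the transcription factor Tead4, switched on by its partner Yap1 where Hippo signalling is low, raises Cdx2 and Gata3, which oppose the pluripotency factor Oct4. Elf5 and the AP-2 factor Tfap2c are used in trophoblast stem cells, Tfap2c also in the preimplantation embryo, and Tfap2a is a related AP-2 factor, and Krt7, Krt8, Krt18 and Krt19 are keratins of simple epithelia, intermediate filament proteins that assemble as pairs of a type II chain (Krt7, Krt8) and a type I chain (Krt18, Krt19). ESCs seldom form trophectoderm, and each gene has other sites of expression, such as the caudal embryo for Cdx2, the surface ectoderm for Gata3 and Tfap2a, and germ cells for Tfap2c.

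Polyadenylated RNA was sequenced from 24 libraries, 12 of undifferentiated ESCs (D0) and 12 after 6 days without leukemia inhibitory factor (LIF), the cytokine that keeps ESCs pluripotent (D6). All clones were 129 derived and came from 1 parental clone with eGFP at the Pou5f1 (Oct4) locus, and all were grown on gelatin. Each day had 3 WT and 3 Tet1-/- libraries, and 2 each of Tet2-/-, of DKO, which lacks Tet1 and Tet2, and of TKO, which also lacks Tet3. Tet proteins oxidise 5-methylcytosine in DNA, and the knockouts were made with CRISPR guides, so that each library of a genotype is 1 edited clone. Clones are lettered here within each genotype in the order of their labels: A, B and C in WT, A to D in Tet1-/- and A and B in Tet2-/-, DKO and TKO. All were sequenced on both days except Tet1-/- clone B, which has a D6 library alone, and clone C, which has a D0 library alone.

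Libraries held 18400463 to 37290208 counts, and 3 counts, the upper limit for a gene with 0 counts, equalled 0.0814 to 0.151 CPM (counts scaled to library size with TMM factors). Pou5f1 and Nanog, which define ESCs, were at 596 CPM or more and 541 CPM or more in every D0 library. The edited genes were counted in every library. Tet2 stood at 87.9 to 93.9 CPM in WT at D0, at 20.9 and 23.2 in Tet2-/-, at 22.3 and 55.7 in DKO and at 8.16 and 42.5 in TKO. Tet1 ranged from 220 to 431 CPM in WT at D0 and from 93.4 to 358 in Tet1-/-, so the ranges overlapped. Of the other clones edited at Tet1, DKO had 373 and 230 CPM at D0 and TKO clones A and B 568 and 41.7, so that TKO clone A lay above every WT library, as it also did at D6. Reads from edited transcripts are still counted, so these levels do not check the genotypes. The labels do not say whether both days were sequenced together, so day and any difference in library preparation cannot be told apart. Below, a gene was called where edgeR's quasi-likelihood test gave a Benjamini-Hochberg adjusted p under 0.05 and the change was over 2-fold.

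From D0 to D6 in WT, 7 of the 10 genes rose and 0 fell. The risers were Cdx2, Gata3, Elf5 and the 4 keratins, whereas Tfap2c, Tfap2a and Tead4 were not called. Cdx2, Gata3 and Elf5 did not pass the filter on low counts at D0. They entered the fit of both days through their D6 levels, so their calls from D0 to D6 in any genotype are not independent of the filter. Over all 15639 tested genes, 34.0% were called, 20.7% as higher at D6 and 13.3% as lower. The median log2 change was 4.15 over the 10 genes and 0.01 over all tested genes. In bulk RNA, more cells that express a gene and more RNA per cell cannot be told apart.

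**Figure D1:**
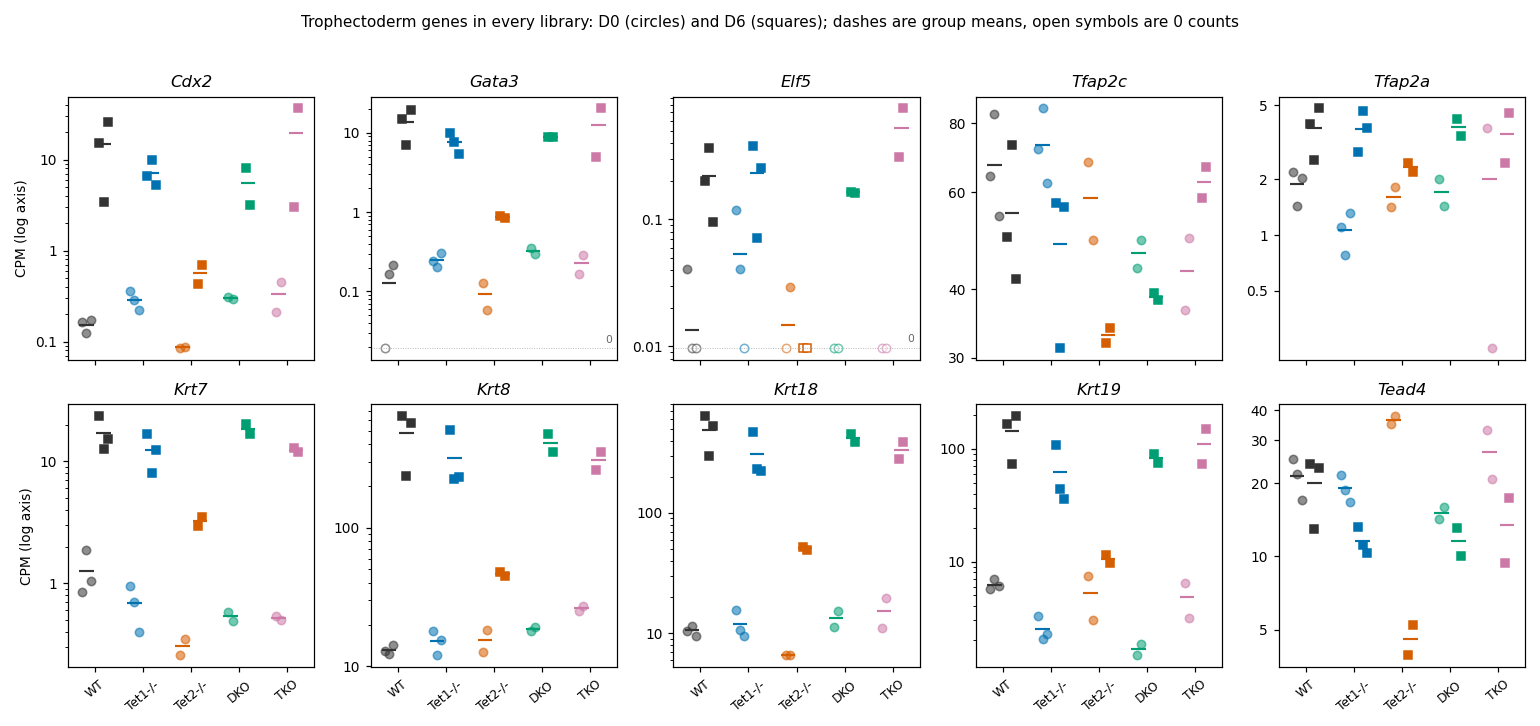
CPM of the 10 genes on log axes in each of the 24 libraries, by genotype, with circles for D0, squares for D6, dashes for group means and open symbols for 0 counts. Both Tet2-/- libraries lie below the other 10 libraries at D6 for Cdx2, Gata3, Elf5, Tfap2a, the keratins and Tead4, and for Tfap2c 1 Tet1-/- library lies lower still. The share of all genes placed in this way is not given.

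Cdx2, a homeodomain factor needed to hold the trophectoderm fate, lies on the minus strand of chromosome 5 (mm9, 148112381 to 148118846). A primer pair for RT-qPCR of Cdx2 matches bases 771 to 792 and 827 to 854 of its 2261-base transcript (GENCODE vM1) and is shown because it places a second assay of this gene:
Cdx2 forward primer: gcgaaacctgtgcgagtggatg
Cdx2 reverse primer: cggtatttgtcttttgtcctggttttca

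At D0 Cdx2 stood at 0.162, 0.123 and 0.173 CPM in WT clones A, B and C, from 4, 3 and 4 counts. At D6 the same clones had 15.3, 3.38 and 26.0 CPM. All 3 D6 values lay above all D0 values, and clone B was the lowest at D6. The log2 change was 6.57 (standard error 0.938, adjusted p = 6.88e-06, edgeR), a 94.9-fold rise. Only 136 of 15639 tested genes had a larger log2 change.

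Gata3, a zinc finger factor that acts beside Cdx2 in the trophectoderm, lies on chromosome 2 (minus strand, 9778705 to 9811661). Annotated genes overlap it on both strands (4930412O13Rik and Gm13256 on the other strand, 9230102O04Rik on the same), and strand use in counting was not stated, so its counts may hold reads of these. WT clones A, B and C had 0, 4 and 5 counts at D0, or 0, 0.165 and 0.216 CPM. At D6 they had 14.9, 7.11 and 19.5 CPM, in the same order of clones as Cdx2. The log2 change of Gata3 was 6.74 (standard error 0.633, adjusted p = 4.85e-08, edgeR), a 107-fold rise.

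Elf5, an Ets factor of trophoblast stem cells, was barely counted. WT had 1 count over 3 libraries at D0 and 4, 10 and 3 counts at D6 in clones A, B and C, or 0.202, 0.363 and 0.0955 CPM. The D6 to D0 ratio of the summed counts, 17 against 1, was 15.6 after scaling to the summed library sizes, with an exact 95% interval for counting error of 2.44 to 650. Elf5 was called at D6 (adjusted p = 0.0122, edgeR) but not without WT clone B at D6 (adjusted p = 0.0590, edgeR). It lies on chromosome 2 (plus strand, 103251845 to 103291146).

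Krt8 and Krt18, the keratin pair of the earliest embryonic epithelia, showed the highest D6 levels of the 10 genes. They are neighbours on chromosome 15, Krt8 on the minus strand (101827142 to 101834773) and Krt18 on the plus strand (101858647 to 101862457), with 23873 bases between them. Krt8 rose from 13.0, 12.3 and 14.2 CPM in WT clones A, B and C to 642, 237 and 573, and Krt18 from 10.5, 11.5 and 9.54 to 640, 299 and 525. For both, the lowest D6 library was more than 10 times the highest D0 library. The log2 change was 5.20 for Krt8 (standard error 0.368, adjusted p = 1.51e-09, edgeR) and 5.54 for Krt18 (standard error 0.350, adjusted p = 3.81e-10, edgeR).

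Krt19, a type I keratin (chromosome 11, minus strand, 100002124 to 100009979), rose from 5.65, 6.99 and 6.05 CPM to 168, 72.8 and 196, a log2 change of 4.54 (standard error 0.473, adjusted p = 1.68e-07, edgeR). Krt7, a type II keratin of glandular and trophoblast epithelium (chromosome 15, plus strand, 101241474 to 101260744), rose from 0.848, 1.89 and 1.04 CPM to 23.6, 12.7 and 15.2, a log2 change of 3.76 (standard error 0.334, adjusted p = 2.45e-08, edgeR). Krt7 reached much lower levels than the other keratins. Per kilobase of exon in WT at D6, the mean level was 349 CPM for Krt18, 268 for Krt8, 78.6 for Krt19 and 2.44 for Krt7. The length used was all annotated exons together, 7049 bases for Krt7 against 1400, 1805 and 1855 for Krt18, Krt8 and Krt19. The counts are per transcript line, so the Krt7 value depends on that length. Undivided, Krt7 averaged 17.2 CPM and Krt19 145 CPM.

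Tead4 and the AP-2 factors were not called in WT. Tead4, the factor that acts first in the embryo (chromosome 6, minus strand, 128174306 to 128250841), had 25.2, 21.9 and 17.0 CPM at D0 and 23.9, 13.0 and 23.0 at D6, and the days overlapped (log2 change -0.10, standard error 0.244, adjusted p = 0.728, edgeR). Tfap2c (chromosome 2, plus strand, 172375093 to 172384122) was high before differentiation, at 64.3, 83.2 and 54.3 CPM, and had 49.8, 73.2 and 41.8 at D6 (log2 change -0.29, standard error 0.227, adjusted p = 0.266, edgeR). Tfap2a (chromosome 13, minus strand, 40811044 to 40829192), which Gm16989 overlaps on the other strand, had 2.18, 1.44 and 2.03 CPM at D0 and 3.98, 2.54 and 4.81 at D6, without overlap but with an adjusted p of 0.0857 (log2 change 1.00, standard error 0.502, edgeR). Without TKO clone A or B at D0, which entered the same fit, the log2 change of Tfap2a in WT was 1.01 or 1.00 (adjusted p = 0.00538 and 0.00605, edgeR), at the 2-fold limit, and the TKO clones at D0 lay far apart, at 3.76 and 0.247 CPM. The AP-2 factors thus differed in level before LIF withdrawal: per kilobase of exon at D0 in WT, Tfap2c averaged 18.3 CPM and Tfap2a 0.581.

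The same change was then taken within each knockout. In Tet1-/-, 7 of the 10 genes were called higher at D6 (31.1% of all genes called, 19.9% as higher). They were Cdx2, Gata3, Tfap2a and the 4 keratins. In DKO 7 were called higher (29.2% of all genes called, 18.6% as higher), and they were those of WT. In TKO the genes called in WT were also called higher and Tead4 was called lower (25.4% of all genes called, 16.8% as higher and 8.63% as lower). In Tet2-/- 4 were called higher (Gata3, Krt7, Krt8 and Krt18) and Tead4 lower, against 19.1% of all genes called, 12.7% as higher and 6.44% as lower. The comparisons share no library with each other.

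**Figure D2:**
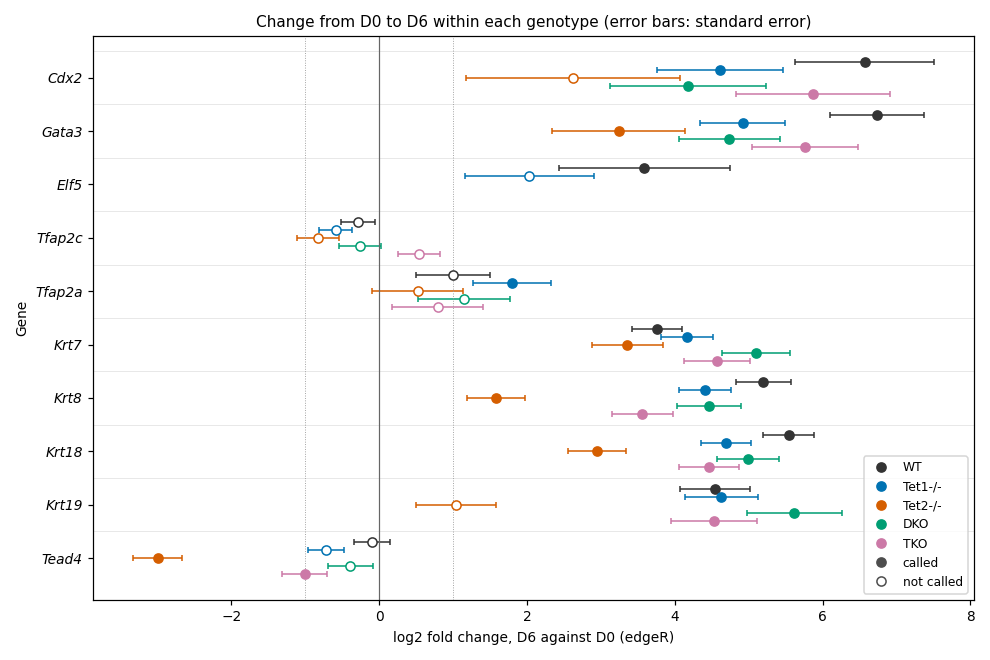
Log2 fold change from D0 to D6 within each genotype for the 10 genes, from edgeR, with standard errors; filled points were called and dotted lines mark 2-fold. Elf5 is left out where a group had 0 counts and in Tet2-/-. The Tet2-/- point lies left of those of the other genotypes for each of the 9 other genes, narrowly for Tfap2c (-0.83 against -0.59 in Tet1-/-) and widely for Krt19 (1.04 against 4.53 in TKO).

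Cdx2 in Tet2-/- went from 0.0853 and 0.0876 CPM at D0 (2 and 3 counts, clones A and B) to 0.432 and 0.697 at D6 (15 and 20 counts). The log2 change was 2.62 (standard error 1.45, adjusted p = 0.159, edgeR), and with clone as a block, since the same clones were sequenced on both days, Cdx2 was called (2.68, adjusted p = 0.0124, edgeR), as it was by DESeq2 (2.71, adjusted p = 0.0449). In Tet1-/- Cdx2 changed by 4.61 (standard error 0.854, adjusted p = 1.29e-04, edgeR), in DKO by 4.18 (standard error 1.06, adjusted p = 0.00267, edgeR). In TKO it changed by 5.87 (standard error 1.04, adjusted p = 1.59e-04, edgeR), and by 3.2 to 6.76 over all alternatives. The TKO clones differed widely at D6, with 3.04 CPM in clone A and 36.5 in clone B, the lowest and the highest of the 10 libraries outside Tet2-/-.

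Gata3 rose in every genotype, by 4.92 on the log2 scale in Tet1-/- (standard error 0.574, adjusted p = 7.64e-07, edgeR), by 4.74 in DKO (standard error 0.687, adjusted p = 1.57e-05, edgeR), by 5.76 for the TKO clones (standard error 0.715, adjusted p = 4.20e-06, edgeR) and by 3.24 in Tet2-/- (standard error 0.899, adjusted p = 0.00794, edgeR). In Tet2-/- it went from 0.128 and 0.0584 CPM to 0.893 and 0.837, and it was not called without clone B at D0 (adjusted p = 0.0985, edgeR). Elf5 had 0 counts in DKO and TKO at D0, and was at least 2.33-fold higher at D6 in DKO and at least 7.64-fold higher in TKO, taking 3 counts over the D0 group as the limit. The DKO call (adjusted p = 0.0339, edgeR) did not hold without any 1 of the 4 DKO libraries (adjusted p = 0.0639 to 0.126, edgeR). In Tet2-/- Elf5 had 1 count over both D0 libraries and 0 over both D6 libraries, too few for a fold change.

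Keratins rose in all 5 genotypes, with Krt19 in Tet2-/- as the exception. Krt18 changed by 4.46 to 5.54 on the log2 scale in the other genotypes and by 2.95 in Tet2-/- (standard error 0.394, adjusted p = 1.3e-05, edgeR), where it went from 6.53 and 6.57 CPM to 52.0 and 49.2. Krt8 changed by 3.56 to 5.20 in the others and by 1.58 in Tet2-/- (standard error 0.393, adjusted p = 0.00381, edgeR), from 12.7 and 18.3 CPM to 47.9 and 44.8. Without clone A at D0 the adjusted p of Krt8 was 0.0506 (edgeR). Krt7 changed by 3.36 in Tet2-/- (standard error 0.476, adjusted p = 2.5e-05, edgeR) and by 3.76 to 5.10 in the others. Krt19 went from 7.51 and 3.01 CPM to 11.5 and 9.69 in Tet2-/- (log2 change 1.04, standard error 0.540, adjusted p = 0.133, edgeR), while in the others it changed by 4.53 to 5.62.

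Tead4 in Tet2-/- moved the other way. It fell from 35.1 and 37.8 CPM at D0 to 3.92 and 5.23 at D6, a log2 change of -3.00 (standard error 0.326, adjusted p = 1.26e-06, edgeR), 7.99-fold lower, and 129 of 15639 tested genes had a lower log2 change. In TKO Tead4 went from 33.0 and 20.9 CPM to 9.44 and 17.4 (log2 change -1.01, standard error 0.303, adjusted p = 0.00956, edgeR), and it was not called without clone A at either day (-0.65 and -0.63). This change lay at the 2-fold limit, and it was below it with DESeq2 (-0.99) or with library totals in place of TMM (-0.85). In Tet1-/- and DKO the log2 change of Tead4 was -0.72 and -0.39, below 2-fold. Tfap2c was called in no genotype, with log2 changes from -0.83 in Tet2-/- to 0.54 in TKO. Tfap2a was called in Tet1-/- (log2 change 1.80, standard error 0.525, adjusted p = 0.00605, edgeR), but with clone as a block it was not (1.42, adjusted p = 0.0984, edgeR).

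At D6 the genotypes were compared with WT directly. In Tet2-/- 8 of the 10 genes were lower and 0 higher, where 14.3% of all 15435 tested genes were called, 9.45% as lower and 4.81% as higher. In Tet1-/-, DKO and TKO 0 of the 10 genes and 0% of all genes were called. These 3 comparisons had 2, 1 and 0 of the 10 genes and 1949, 2251 and 3629 of all genes at an unadjusted p under 0.05, and DESeq2 called 0 of the 10 genes and 44, 185 and 470 of all genes. The 4 comparisons share the 3 WT libraries. The median log2 difference of Tet2-/- from WT over the 10 genes was -3.34, or -2.86 with Elf5 at its limit, and -0.03 over all tested genes.

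**Figure D3:**
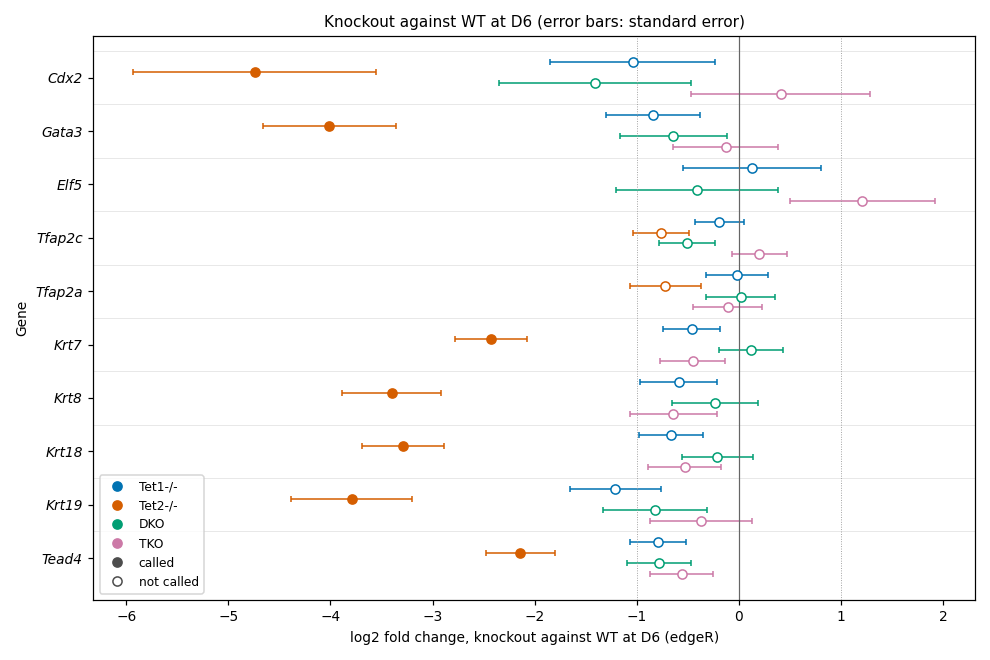
Log2 fold change of each knockout against WT at D6 for the 10 genes, from edgeR, with standard errors; filled points were called and dotted lines mark 2-fold. Elf5 in Tet2-/- had 0 counts and is left out. The called points all belong to Tet2-/-, from -4.74 (Cdx2) to -2.14 (Tead4).

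Cdx2 had 0.432 and 0.697 CPM in Tet2-/-, against 3.38 to 26.0 in WT, 5.24 to 9.78 in Tet1-/-, 3.17 and 8.02 in DKO, while the TKO clones had 3.04 and 36.5. Both Tet2-/- libraries lay below the lowest of the others, and the other 4 genotypes overlapped with each other. Cdx2 was 26.7-fold lower in Tet2-/- than in WT (log2 -4.74, standard error 1.19, adjusted p = 0.0167, edgeR). Gata3 had 0.893 and 0.837 CPM in Tet2-/- and 5.01 or more in every other library, and was 16.1-fold lower than in WT (log2 -4.01, standard error 0.648, adjusted p = 0.00477, edgeR). Elf5 had 0 counts in both Tet2-/- libraries, against 17 counts over the WT libraries, and was at least 4.56-fold lower, taking 3 counts over the group as the limit. Elf5 passed the filter at D6 through libraries outside Tet2-/- only, so its calls as lower in Tet2-/- are not independent of the filter. Its call (adjusted p = 0.0263, edgeR) did not hold without WT clone A or B (adjusted p = 0.0523 and 0.0517, edgeR).

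Krt8 had 47.9 and 44.8 CPM in Tet2-/- against 237 to 642 in WT, 225 to 507 in Tet1-/-, 353 and 473 in DKO, while the TKO clones had 261 and 354. It was 10.6-fold lower than in WT (log2 -3.40, standard error 0.487, adjusted p = 0.00414, edgeR). Krt18 was 9.75-fold lower (log2 -3.29, standard error 0.405, adjusted p = 0.00410, edgeR), Krt19 13.8-fold (log2 -3.79, standard error 0.593, adjusted p = 0.00444, edgeR) and Krt7 5.39-fold (log2 -2.43, standard error 0.351, adjusted p = 0.00414, edgeR). Every keratin was lower in both Tet2-/- libraries than in the other 10 D6 libraries. The share of all tested genes separated in this way is not given, so the separation only describes these genes. Tead4 had 3.92 and 5.23 CPM in Tet2-/- and 9.44 or more elsewhere, and was 4.41-fold lower than in WT (log2 -2.14, standard error 0.336, adjusted p = 0.00445, edgeR).

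Tfap2c and Tfap2a were not called. Tfap2c had 32.0 and 34.0 CPM in Tet2-/-, 41.8 to 73.2 in WT and 31.3 to 57.4 in Tet1-/- (log2 against WT -0.76, standard error 0.276, adjusted p = 0.0601, edgeR), and Tfap2a 2.45 and 2.2 against 2.54 to 4.81 in WT (log2 -0.72, standard error 0.348, adjusted p = 0.140, edgeR). With 2 Tet2-/- clones the calls rest on both. Without clone B at D6 the calls were lost for the 10 genes and for all other genes. Without clone A, of the 10 genes only the keratins kept their calls, and the share of all genes is not given. The lone clone is then assumed to vary like the other groups. The log2 differences themselves ranged over all alternatives from -5.21 to -4.05 for Cdx2, from -4.32 to -3.66 for Gata3 and from -3.72 to -3.12 for Krt8.

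Tet2-/- was next set against each other knockout at D6, comparisons chosen after the data had been seen. Of the 10 genes, 7 were lower than in Tet1-/- (6.36% of all genes called, 4.48% as lower and 1.87% as higher), 6 lower than in DKO (9.50% called, 6.37% as lower and 3.13% as higher) and 8 lower than in TKO (8.64% called, 6.01% as lower and 2.63% as higher), and 0 were higher. Gata3, the 4 keratins and Tead4 were called in all 3. Gata3 was lower by -3.16, -3.36 and -3.88 on the log2 scale (adjusted p = 0.0165, 0.00971 and 0.00925, edgeR) and Krt18 by -2.63, -3.08 and -2.76 (adjusted p = 0.00795, 0.00311 and 0.00714, edgeR). Over all alternatives Gata3 ranged from -3.36 to -2.92 against Tet1-/-, -3.42 to -3.32 against DKO and -4.56 to -2.57 against TKO, whose clones had 5.01 and 20.3 CPM. Cdx2 was called against TKO (log2 -5.15, adjusted p = 0.0241, edgeR) and not against Tet1-/- (log2 -3.69, adjusted p = 0.0658, edgeR) or DKO (log2 -3.33, adjusted p = 0.0813, edgeR). DESeq2 called Cdx2 in both of these (adjusted p = 0.00634 and 0.0233). Without TKO clone B, the log2 difference of Cdx2 from TKO was -2.48, and calls were lost. Calls were also lost in all 3 comparisons without Tet2-/- clone A or B. The same held without Tet1-/- clone A against Tet1-/- and without DKO clone B against DKO. The shares of all genes called in these fits are not given, so it is not shown whether other genes lost their calls too.

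Before differentiation few of the genes differed from WT. Cdx2, Gata3 and Elf5 did not pass the filter on low counts at D0, and 7 genes were tested. Cdx2 had 0.123 to 0.173 CPM in WT, 0.22 to 0.358 in Tet1-/-, 0.209 and 0.453 in the TKO clones, and 0.295 and 0.311 in the DKO clones, against 0.0853 and 0.0876 in Tet2-/-. Tet1-/-, TKO and DKO lay above WT and Tet2-/- below it, without overlap, from 2 to 11 counts in a library. The alternatives that kept Cdx2 in the fit, 7 for each knockout, called it in 0 (lowest adjusted p = 0.0602, in TKO, over the edgeR and DESeq2 fits). In Tet2-/- 1 of 7 was called, Krt7, as lower (3.19% of all 14456 tested genes called, 2.37% as lower and 0.816% as higher). Krt7 had 6 and 12 counts in Tet2-/-, or 0.256 and 0.351 CPM, against 0.848 to 1.89 CPM in WT (log2 -2.03, standard error 0.467, adjusted p = 0.0236, edgeR), and it was not called without either Tet2-/- clone (adjusted p = 0.162 without A and 0.159 without B, edgeR) or WT clone B or C (adjusted p = 0.0817 and 0.0593, edgeR). Tead4 in Tet2-/- was above every other library at D0, at 35.1 and 37.8 CPM against 14.3 to 33.0, and its log2 difference from WT of 0.75 was below 2-fold (standard error 0.198, adjusted p = 0.0362, edgeR). In both Tet2-/- comparisons with WT, at D0 and at D6, Tead4 thus differed in opposite directions.

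In TKO at D0, 0 of 7 genes were called (3.15% of all genes called, 1.03% as higher and 2.12% as lower; 3 of 7 genes and 3813 of all 14456 had an unadjusted p under 0.05, and DESeq2 called 0 of 7 and 488 of all). Krt8 came nearest, at 25.0 and 27.3 CPM against 12.3 to 14.2 in WT and 12 to 19.3 in the other knockouts (log2 0.99, standard error 0.182, adjusted p = 0.00959, edgeR), just under 2-fold. It was called without TKO clone A (1.05) or WT clone C (1.04). In Tet1-/- 0 were called (0.00692% of all genes; 2 of 7 genes and 1828 of all had an unadjusted p under 0.05, and DESeq2 called Krt19 and 50 of all), and in DKO 0 (0.0346% of all genes, 0.0138% as higher and 0.0208% as lower; 5 of 7 genes and 2081 of all had an unadjusted p under 0.05, and DESeq2 called Krt19 and 111 of all). Krt19 had 3.26, 2.05 and 2.25 CPM in Tet1-/- clones A, C and D and 1.47 and 1.87 in DKO, against 5.65 to 6.99 in WT, with no overlap (log2 -1.32 and -1.91, adjusted p = 0.156 and 0.0872, edgeR). With either TKO library left out of the fit, Krt19 was called in both Tet1-/- and DKO. Without TKO clone A calls were added in TKO, and the share of all genes called in that fit is not given.

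The test of whether a knockout's difference from WT changed between D0 and D6 asked for the change itself. For Tet2-/- 4 of the 10 genes were called, all lower at D6 than at D0 (8.68% of all genes called, 5.13% as lower and 3.54% as higher). They were Krt8 (log2 -3.62), Krt19 (-3.50), Tead4 (-2.90) and Krt18 (-2.59). Cdx2 (-3.94, standard error 2.31, adjusted p = 0.245, edgeR) and Gata3 (-3.50, standard error 1.49, adjusted p = 0.109, edgeR) had larger standard errors than these 4. DESeq2 called 6 of the 10 genes, and 1636 of all genes against 1357 by edgeR, adding Cdx2 (-3.92, adjusted p = 0.0325) and Gata3 (-3.51, adjusted p = 0.00983). With clone as a block Cdx2 was called (-3.78, adjusted p = 0.0452, edgeR). Krt7, lower in Tet2-/- than in WT on both days, had a change of -0.40 (standard error 0.626, adjusted p = 0.693, edgeR). For Tet1-/- and DKO 0 of the 10 genes and 0% of all genes were called (0 and 1 of the 10 genes and 1200 and 1255 of all genes at an unadjusted p under 0.05, 0 of the 10 genes and 12 and 20 of all genes by DESeq2). For TKO 0 of the 10 genes were called (3.58% of all genes, 1.84% as higher and 1.74% as lower; 4 of the 10 and 3687 of all 15639 genes had an unadjusted p under 0.05, and DESeq2 called 1 of the 10 and 809 of all). Krt8 came nearest in TKO (-1.64, standard error 0.497, adjusted p = 0.0550, edgeR) and was called by DESeq2 (adjusted p = 0.0147) and with clone as a block (-1.54, adjusted p = 0.0302, edgeR). Without WT clone B at D6, Krt8 and Tead4 were called as lower and Tfap2c as higher in TKO, and the share of all genes called in that fit is not given.

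Over the 12 D6 libraries, log2(CPM + 1) of Krt8 and Krt18 had a Pearson's r of 0.995 (0.973 over the 10 libraries outside Tet2-/-), and Cdx2 and Gata3 of 0.928 (0.895). Over the 12 D0 libraries these were 0.518 and 0.693, where Cdx2 and Gata3 had at most 11 counts in a library. Over the 12 D6 libraries Gata3 followed Krt19 (0.962), Tead4, Krt18 (0.938) and Krt8 (0.932) more closely than Cdx2. Outside Tet2-/- its r with these genes was 0.704 to 0.874, below that with Cdx2. Tfap2c followed few of the others: outside Tet2-/- its r at D6 was 0.809 with Elf5, and from -0.565 to 0.139 with the rest. These are descriptions over libraries that share genotype and depth. Per kilobase of exon, the ratio of Krt8 to Krt18 was 0.612 to 0.845 in the 12 D6 libraries, Tet2-/- included (0.714 and 0.707), and 0.829 to 2.15 at D0, with the highest value in a Tet2-/- library. At D6 the Tet2-/- ratios thus lay inside the range of the other libraries, although Krt8 was 10.6-fold and Krt18 9.75-fold lower than in WT. For the type I chains, the ratio of Krt19 to Krt18 was 0.119 to 0.288 at D6 and 0.0918 to 0.869 at D0.

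**Figure D4:**
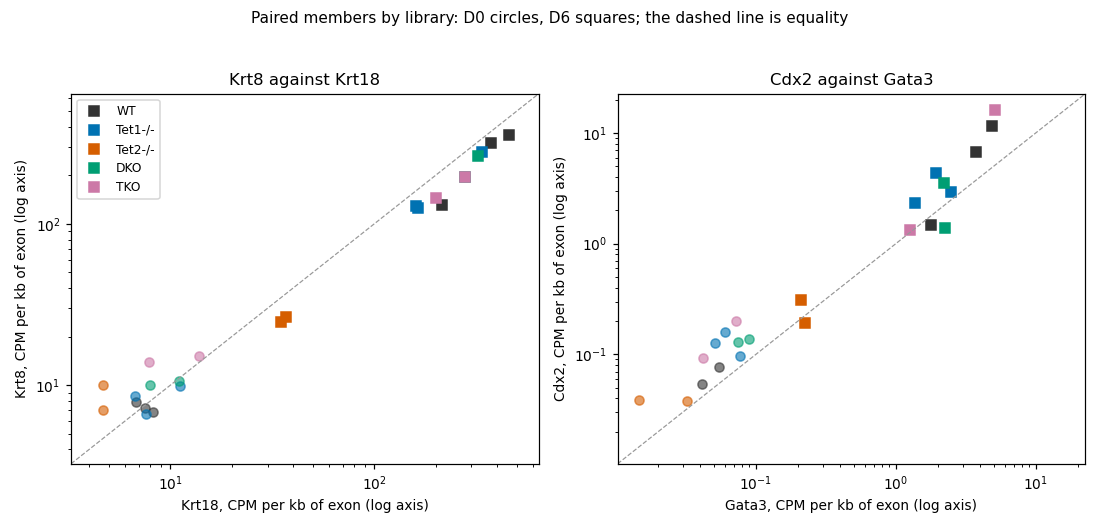
Krt8 against Krt18 (24 libraries) and Cdx2 against Gata3 (23 libraries, without the WT library with 0 Gata3 counts), in CPM per kilobase of exon on log axes, with the line of equality dashed. The Tet2-/- squares lie between the D0 circles and the other D6 squares for Krt8, Krt18 and Gata3, and for Cdx2 1 of them (0.432 CPM before division by length) lies below the highest D0 value (0.453 CPM).

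Promoter sequence was compared with RefSeq windows of GRCm38.p6, 250 bases before to 50 after each start, which hold 9 windows of 7 of the genes (Cdx2, Gata3, Elf5, Tfap2a, Krt7, Krt8 and Krt18) among 32851 windows. Both strands were searched for the AP-2 motif GCCNNNGGC, the TEAD motif GGAATG, the GATA motifs AGATAA and TGATAA and the CDX motif TTTATNG. The AP-2 motif was in the windows of Cdx2 (1 match), Gata3 (3), Krt7 (2) and Krt18 (1) and in 16.6% of all windows. The TEAD motif was in 1 of the 2 Elf5 windows (14.7% of all), the GATA motif in that of Krt8 (18.6%) and the CDX motif in 0 of the 9 (10.9%). A match is a description of the letters only. At D6 levels moved together in the pairs Cdx2 and Gata3, and Krt8 and Krt18, but not in these alone. The 250 bases before the start are printed for both pairs, with matches in capitals:
Cdx2 promoter, chr5:147307250-147307499, minus strand: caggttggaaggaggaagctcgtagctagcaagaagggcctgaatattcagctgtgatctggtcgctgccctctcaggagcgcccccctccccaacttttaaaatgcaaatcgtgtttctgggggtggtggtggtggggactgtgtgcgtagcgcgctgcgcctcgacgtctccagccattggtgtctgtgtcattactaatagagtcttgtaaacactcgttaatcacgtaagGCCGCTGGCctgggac
Gata3 promoter, chr2:9878601-9878850, minus strand: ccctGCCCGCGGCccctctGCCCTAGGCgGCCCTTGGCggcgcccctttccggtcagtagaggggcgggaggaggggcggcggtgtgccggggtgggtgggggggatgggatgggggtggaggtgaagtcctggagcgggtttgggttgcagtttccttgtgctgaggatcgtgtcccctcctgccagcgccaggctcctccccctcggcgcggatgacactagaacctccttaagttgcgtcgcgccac
Krt8 promoter, chr15:102004343-102004592, minus strand: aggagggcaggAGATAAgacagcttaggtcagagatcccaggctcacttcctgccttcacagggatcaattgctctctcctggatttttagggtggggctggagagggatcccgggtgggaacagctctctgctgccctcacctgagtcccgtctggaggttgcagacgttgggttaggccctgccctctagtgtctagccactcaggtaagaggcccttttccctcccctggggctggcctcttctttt
Krt18 promoter, chr15:102027966-102028215, plus strand: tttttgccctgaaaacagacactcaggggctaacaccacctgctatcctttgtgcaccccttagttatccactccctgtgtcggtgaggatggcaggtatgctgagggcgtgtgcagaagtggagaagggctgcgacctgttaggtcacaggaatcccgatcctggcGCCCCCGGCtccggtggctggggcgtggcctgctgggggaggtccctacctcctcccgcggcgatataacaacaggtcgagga

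CpG content, which sets how many sites a window offers for methylation, differed between the keratin partners. The ratio of observed to expected CpG was 0.238 for Krt8 (6 CpGs) and 0.603 for Krt18 (17 CpGs), against a median of 0.384 over all windows. It was 0.731 for Cdx2, 0.658 for Gata3, 0.641 for Krt7 and 0.621 and 0.710 for the Tfap2a windows, all above that median, and 0.110 and 0.442 for the Elf5 windows. DNA methylation was not analysed here.

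Other trophoblast genes were read from a list of 20, of which 14 passed the filter in the fit of both days. In WT 7 rose from D0 to D6 and 2 fell, beside 20.7% and 13.3% of all tested genes. Hand1, a factor of trophoblast giant cells and of lateral mesoderm, rose by 7.41 on the log2 scale (standard error 0.902, adjusted p = 1.1e-06, edgeR), Eomes, a factor of trophoblast stem cells and of the primitive streak, by 4.82 (standard error 0.406, adjusted p = 1.29e-08, edgeR), and Plac1, a placental gene, by 4.69 (standard error 0.972, adjusted p = 5.06e-04, edgeR). Genes of differentiated trophoblast in the list were unevenly counted. Over the 12 D6 libraries Tpbpa, Prl3d1, Prl3b1, Prl2c2 and Ctsq had at most 2 counts in a library, with 0 in WT, and Synb, a syncytin, had at most 2. Gcm1, a factor of the syncytiotrophoblast, had 5, 41 and 16 counts in WT clones A, B and C at D6 and at most 77 elsewhere, and the syncytin Syna had 2, 5 and 11 counts in WT and at most 16 elsewhere. These genes were chosen after their values were seen. In Tet2-/- against WT at D6, 7 of the 14 tested were lower and 0 higher (median log2 -1.10), beside 9.45% lower and 4.81% higher over all tested genes. Hand1 was 161-fold lower (log2 -7.33, standard error 1.27, adjusted p = 0.00556, edgeR), Plac1 19.8-fold (log2 -4.31, standard error 1.14, adjusted p = 0.0203, edgeR) and Plet1, a surface protein of trophoblast progenitors, 5.20-fold (log2 -2.38, standard error 0.513, adjusted p = 0.0103, edgeR).

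Partners and targets of Tead4 were read from a list of 21 Hippo pathway genes, all tested. In WT 13 rose and 0 fell (median log2 1.39), again beside 20.7% and 13.3% over all genes, with Amot, an angiomotin that binds Yap1, at 6.54 (standard error 0.487, adjusted p = 2.9e-09, edgeR), and the Yap1 targets Ankrd1 at 6.39 (standard error 0.873, adjusted p = 1.33e-05, edgeR) and Cyr61 at 4.61 (standard error 0.322, adjusted p = 1.32e-09, edgeR). Yap1 itself was not called (0.57). In Tet2-/- against WT at D6, 7 were lower and 0 higher (median log2 -0.74), beside 9.45% and 4.81% over all genes. Ankrd1 was lower by -4.63 (standard error 0.853, adjusted p = 0.00626, edgeR), Amot by -3.00 (standard error 0.572, adjusted p = 0.00689, edgeR) and Cyr61 by -2.76 (standard error 0.380, adjusted p = 0.00410, edgeR). Of 12 junction and adhesion genes of simple epithelia, 8 rose in WT and 0 fell, led by Cldn7 (4.92), Dsp (4.17) and Cldn3 (4.07). In Tet2-/- at D6, 4 of the 12 were lower than in WT and 0 higher (9.45% and 4.81% over all genes). Their median was -0.50, beside -3.34 over the 10 trophectoderm genes, or -2.86 with Elf5 at its limit. The lower ones included Dsp, a desmosome protein that anchors keratin filaments (-2.36, standard error 0.345, adjusted p = 0.00415, edgeR).

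Markers of caudal mesoderm, endoderm, surface ectoderm with neural crest, and pluripotent cells were read in the same comparison of Tet2-/- with WT at D6, where 9.45% of all tested genes were called lower and 4.81% higher and the median log2 change was -0.03. Caudal mesoderm genes summed to 132 to 399 CPM in WT at D6 and 12.4 to 23.6 in Tet2-/-, 6 of 12 were lower there (median log2 -3.88), among them Mesp1 (-6.60) and Evx1 (-5.33), and Hand2 was at 0. Endoderm genes summed to 97.5 to 317 CPM in WT and 39.8 to 45.0 in Tet2-/-, with 5 of 9 tested lower (median log2 -2.52), among them Sox17 (-7.06) and Gata6 (-6.07). The endoderm sum was also below WT in TKO, at 42.3 to 69.8 CPM, and in DKO, at 77.7 to 97.3, with 0 of 9 genes called in either, where 0% of all genes were called. Between Tet2-/- and TKO 0 of 9 were called, against 8.64% of all genes. Surface ectoderm and neural crest genes summed to 105 to 142 CPM in WT and 121 to 137 in Tet2-/-, with 3 of 9 tested lower (median log2 -1.12), among them Msx2 (-5.29), and 1 higher. The higher one was Foxd3, a factor of neural crest and also of pluripotent cells, which made up 45.0 and 54.9 CPM of the Tet2-/- sums and 3.31 to 9.54 CPM of those in WT. Pluripotency genes summed to 861 to 1800 CPM in WT and 2300 to 2520 in Tet2-/- (median log2 1.10), where Klf2 (1.73) and Pou5f1 (1.18) were higher and Dppa3 lower (-2.83). The part of these cell types in the levels of the 10 genes was not tested.

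The genes whose log2(CPM + 1) followed each of the 10 most closely over the 24 libraries were taken by Pearson's r. They were Tnnt3 (0.983), Lsp1 and Tnc for Cdx2, and Tmem176b (0.994), Tmem176a and Dusp10 for Gata3. For Krt8 they included Krt18 (0.990) and Csf1, and they were for Krt18 Gsn (0.993), Fhl2 and Csf1, for Krt19 Rras (0.980), Pld2 and Dysf, and for Krt7 Csf1 (0.987), Acta1 and Pdlim2. Csf1 was among the closest for 3 of the 4 keratins. Tead4 was nearest to Dgat1 (0.877), Sh3bp1 and Elf4, Elf5 to Aldh3b2 (0.930), Tmprss4 and Gstm3, Tfap2a to Fam178a (0.894), Appl1 and Stil, and Tfap2c to Slc44a4 (0.802), Otud6a and Slc26a9. The libraries share day, genotype and depth, so these values describe likeness only.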

How the data were processed

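RNA of 24 libraries was analysed. Per the labels, the authors mapped paired-end reads to mm9 with STAR 2.5.1. The authors deposited raw read counts per transcript line, without normalization. The counting program is named differently in their notes, and strand use is not given in the sources used here. Each table has 31928 lines for 22926 symbols, and the first line of a symbol was used. Of the 10 genes, 4 had 2 lines, and levels of the second line are not shown. Counts were analysed in R 4.3.3 with edgeR 4.0.16 (TMM scaling, filterByExpr with a minimum count of 10, quasi-likelihood test, 1 coefficient per group). Separate fits covered D0 (14456 genes), D6 (15435) and all libraries (15639, for changes between days). A gene was called at an adjusted p under 0.05 (Benjamini-Hochberg over all tested genes) and a change over 2-fold. DESeq2 1.42.0, other scalings, filters and lines, a replicate block and leaving out each library served as alternatives. Levels per kilobase used exon lengths and positions of GENCODE vM1 (mm9), where Tfap2a and Tfap2c are named Tcfap2a and Tcfap2c.

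The genes and lists were chosen with earlier results of these data known. Of each list, at most 3 called genes with the largest change in WT and 3 in a knockout at D6 were named, beside markers at 0, Yap1 and the checks of Pou5f1, Nanog and the Tet genes. Labels give clones, and 11 were sequenced on both days, so D0 and D6 are paired by clone: deviations from group means of the same clone correlated at 0.0813 to 0.193. The D6 label of 1 DKO clone is written without its point and was matched to clone B. Clones are the replicates, and p-values measure the spread between clones of 1 parental line. Intervals and limits cover counting error only. 1 gene among those most like Krt8 is not reported here. Scripts were tested on simulated data.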

Additional observations from a re-analysis of the deposited data

Results flagged for a closer look

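Among the 10 trophectoderm genes, 4 had a difference between Tet2-/- and WT that changed between D0 and D6 by edgeR's interaction contrast. Krt8 changed by -3.62 on the log2 scale (standard error 0.513, adjusted p = 0.00121, edgeR), Krt18 by -2.59 (standard error 0.488, adjusted p = 0.00472, edgeR), Krt19 by -3.50 (standard error 0.7, adjusted p = 0.00584, edgeR) and Tead4 by -2.90 (standard error 0.4, adjusted p = 0.00121, edgeR). For Krt8, Krt18 and Tead4 the call held under all 30 alternatives run, with log2 values of -3.95 to -3.33, -2.84 to -2.34 and -3.13 to -2.70. Krt19 was not called without Tet2-/- clone A at D0 (-2.71, adjusted p = 0.0577, edgeR).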

How the results depend on the processing

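Among the 10 trophectoderm genes, no call changed direction under any alternative run, and the other genes named were not refitted. Replicate numbers within a day share only a number: deviations of same-numbered knockout and WT libraries correlated at -0.377 to 0.312, and the block by number changed the TKO count at D0 from 0 to 1 gene (Krt8) and, for Tet2-/- against Tet1-/-, ended the Elf5 call and added Cdx2 (adjusted p = 0.0686 and 0.0436, edgeR). The replicate block by clone changed the count of the TKO interaction from 0 to 1 (Krt8), and the calls of Cdx2 and Tfap2a given above. DESeq2 called 1 gene (Krt19) in Tet1-/- and 1 in DKO against WT at D0 and 1 (Krt8) in the TKO interaction, 6 against 4 genes in the Tet2-/- interaction and 6 against 5 from D0 to D6 in Tet2-/-, and without a filter 1 was called in DKO at D0 and 1 in the TKO interaction. Leaving out 1 library at a time gave counts of 0 to 1 for Tet1-/-, Tet2-/- and DKO against WT at D0, 0 to 2 for TKO at D0, 0 to 8 for Tet2-/- against WT, Tet1-/- or TKO at D6, 0 to 7 against DKO, and 0 to 3 for the TKO interaction. The shares of all genes called in these fits are not given, so the counts do not show whether the 10 genes differ from the rest. From D0 to D6, Tead4 in WT (-0.10, not called) changed sign, to 0.05 with library totals in place of TMM and -0.24 to 0.13 with 1 library left out. Tfap2a in TKO (0.79, not called) was -0.12 without TKO clone B at D0 and 3.78, and called, without clone A, and Elf5 in Tet2-/- (-2.24, not called) ranged from -2.86 to 0.00. The cause was not tested. Cdx2, Gata3 and Elf5 had at most 11 counts in each D0 library and did not pass the filter there; in the alternatives that kept them, 0 of these 3 genes were called at D0.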
